A study of Mus musculus with 15 samples.

Results

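The genes described here are 9 enzymes of mitochondrial fatty acid oxidation, Cpt1a, Cpt2, Acadm, Acadl, Acadvl, Hadha, Hadhb, Etfdh and Acaa2, chosen by gene name from the 52526 genes measured in each mouse. All 9 were found, and all 9 were among the 9511 genes that were above the detection floor in at least 7 mice and were therefore tested. RNA came from mammary tissue (left 4th gland) of female nu/nu nude mice (Crl:NU-Foxn1nu), which lack a functional Foxn1 gene and so have no thymus. After 8 weeks of age, 7 mice received BDE-47, a polybrominated diphenyl ether flame retardant, delivered by osmotic mini-pumps under the skin for 16 weeks (0.03 mg/kg/d intended), and 8 mice received the same PEG300 vehicle with 1% DMSO without BDE-47. Some of the animals also served a xenograft study, and the labels do not tell which mice carried a xenograft near the gland, so that part of the spread between mice could not be assigned. The values are log2 of CPM, the reads of a gene scaled to the mapped reads of its library, in which every gene under 1 CPM is listed at 0. Differences are BDE-47 minus vehicle on this log2 scale, so that 1 is a 2-fold difference.

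Fatty acid oxidation is the route by which mitochondria break down long-chain fatty acids for energy. The carnitine palmitoyltransferases (Cpt1a on the outer membrane, Cpt2 on the inner membrane) carry acyl groups into the mitochondrion, and the step at Cpt1a is the one that malonyl-CoA holds in check. Inside, acyl-CoA dehydrogenases for chains of different length (Acadvl, Acadl, Acadm) make the first oxidation, the trifunctional protein (Hadha and Hadhb) carries out the following steps on long chains, Acaa2 is a thiolase that releases acetyl-CoA, and Etfdh passes the electrons to ubiquinone. Several of these genes are known targets of peroxisome proliferator-activated receptors, and in the mammary fat pad the bulk of the tissue is white fat with ducts of epithelium within it.

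In the RefSeq annotation of GRCm38.p6 the members lie on several chromosomes: Cpt1a at chr19:3322326-3385735, Cpt2 at chr4:107903982-107923589, Acadm at chr3:153922353-153944643, Acadl at chr1:66830839-66863309, Acadvl at chr11:70010183-70015428, Hadha at chr5:30119423-30154980, Hadhb at chr5:30155253-30184593 and Etfdh at chr3:79603788-79628767. Hadha and Hadhb, which encode the alpha and beta subunits of the trifunctional protein, lie head to head with 272 bases between them. Their promoter windows, each from 250 bases before to 50 bases after the RefSeq start, therefore share 228 bases. The Hadhb window (chr5:30155003-30155302, plus strand) is printed here with the shared part in capitals, because the subunits of 1 enzyme are read out from it in opposite directions.
Hadhb: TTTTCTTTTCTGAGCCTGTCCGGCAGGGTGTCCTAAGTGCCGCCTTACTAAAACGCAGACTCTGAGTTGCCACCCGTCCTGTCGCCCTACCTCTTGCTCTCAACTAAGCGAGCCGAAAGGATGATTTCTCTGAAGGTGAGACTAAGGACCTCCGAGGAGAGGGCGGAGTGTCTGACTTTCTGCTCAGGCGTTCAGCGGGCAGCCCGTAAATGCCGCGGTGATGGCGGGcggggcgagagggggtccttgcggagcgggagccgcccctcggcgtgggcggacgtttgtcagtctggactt

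The windows were also searched on both strands for AGGTCA, the half-site that nuclear receptors of this class bind. It was present in 16.3% of 32851 RefSeq promoters of that length and in 12.2% of the 9482 promoters that belong to tested genes. Among the 8 members with a window in the table, 3 held it, and these 3 windows are shown with the match in capitals. Relative to the listed start, the match lies from -94 to -89 in Cpt1a (chr19:3323051-3323350, plus strand, within the annotated gene), from -249 to -244 in Acadm (chr3:153944594-153944893, minus strand) and from -87 to -82 in Acadvl (chr11:70015379-70015678, minus strand). In Cpt1a and Acadm it reads as the reverse complement, TGACCT. The pair of half-sites with 1 base between them, AGGNCANAGGNCA, was found in 0.381% of all promoters and in 0 of the 8 members, and TCAAGGTCA, a longer form that overlaps the half-site, in 0.423% and in 0 of 8. A match of letters is a description of the window and not a binding site.
Cpt1a: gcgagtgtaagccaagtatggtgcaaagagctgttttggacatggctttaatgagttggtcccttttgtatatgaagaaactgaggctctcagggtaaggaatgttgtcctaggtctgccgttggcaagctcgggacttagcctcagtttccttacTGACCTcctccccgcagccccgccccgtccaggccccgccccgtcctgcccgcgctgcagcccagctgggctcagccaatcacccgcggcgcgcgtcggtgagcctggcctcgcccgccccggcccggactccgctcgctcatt
Acadm: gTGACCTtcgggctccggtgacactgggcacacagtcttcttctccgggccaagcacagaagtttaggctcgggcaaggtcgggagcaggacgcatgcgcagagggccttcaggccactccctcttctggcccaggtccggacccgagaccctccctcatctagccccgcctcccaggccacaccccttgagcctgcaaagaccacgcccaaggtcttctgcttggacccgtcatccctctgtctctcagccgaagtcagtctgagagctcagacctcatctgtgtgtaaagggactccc
Acadvl: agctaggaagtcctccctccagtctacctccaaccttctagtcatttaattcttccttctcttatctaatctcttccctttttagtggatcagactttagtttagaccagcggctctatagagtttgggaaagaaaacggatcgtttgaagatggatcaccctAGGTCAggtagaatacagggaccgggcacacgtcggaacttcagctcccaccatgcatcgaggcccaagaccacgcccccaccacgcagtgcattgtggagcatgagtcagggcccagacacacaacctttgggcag

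The depth of the libraries was 10.06 to 19.58 M mapped reads (11.97 to 16.51 in vehicle mice). At that depth the member genes had medians of 289 reads per mouse (Etfdh) to 2170 reads (Acadl). How many separate RNA molecules these reads stand for cannot be read from the values. Etfdh had 912 reads in vehicle replicate 3 and was listed at 0 in vehicle replicates 2 and 7. The part of counting error in the spread between mice was not tested. Markers of white adipocytes fitted the tissue label: their summed level was between 9765 and 32799 CPM in 12 of the 15 mice, and epithelial keratins were above the floor in every mouse, while the milk genes Wap and Csn2 were at 0 in all mice. The remaining 3 mice stood apart. In vehicle replicates 6 and 8 all 8 B cell markers were above the floor (up to 697 CPM in sum, against at most 9.87 CPM and at most 1 marker in the 12 mice), and the mean level of the 9 white adipocyte markers was 4.35 and 5.44, against 8.39 to 9.99 in the 12 mice. In BDE-47 replicate 6 the 14 skeletal muscle markers summed to 130208 CPM, against 63.2 to 308 CPM in the other mice, and the white adipocyte mean was 7.38. The differences of the members are therefore given with and without vehicle replicates 6 and 8. In whole tissue, fewer cells of a type and less RNA per cell cannot be told apart.

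The enzymes were listed at median levels from 19.6 CPM (Etfdh) to 150 CPM (Acadl). Because a transcript is tagged by design once, at its 3′ end, CPM values are compared between genes here without division by length. By the median of all 15 mice the order was Acadl (7.23 log2 CPM, or 150 CPM), Hadha (7.05, 132 CPM), Acadvl (6.23, 75.0 CPM), Acadm (5.97, 62.6 CPM), Acaa2 (5.91, 60.1 CPM), Hadhb (5.63, 49.5 CPM), Cpt1a (5.53, 46.3 CPM), Cpt2 (4.66, 25.2 CPM) and Etfdh (4.30, 19.6 CPM). The 8 pairs of neighbours in this order were then compared, although the order was taken from the same values. Only Hadha and Acadvl had an adjusted p under 0.05. Hadha was higher by 0.68 ± 0.98 (SD, n = 15), in 13 of 15 mice (exact sign-flip permutation test, two-sided, p = 0.00616, Benjamini-Hochberg 0.0493 over the 8 pairs). The mean difference was smaller than its SD between mice. Acadl and Hadha differed by 0.67 (exact permutation p = 0.0173, adjusted 0.0693), and the other pairs had adjusted values of 0.469 to 0.485. Hadha and Hadhb, the subunits of the trifunctional protein, are not neighbours in this order and were not compared by a test; over the mice Hadha ranged from 3.26 to 7.39 and Hadhb from 4.14 to 6.83.

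Most members were near one level in most mice and very low in a few. Of the 135 member values, 4 were listed at 0 and 5 more were under 1 on the log2 scale, together 6.67%, and in the 3496 genes whose medians lie between those of the members the same share was 5.99%. At 0 alone it was 2.96% against 4.63%. Of the 9 values at 0 or under 1, the ones of Cpt1a were in BDE-47 replicates 4 and 6, those of Cpt2 in vehicle replicates 2 and 8, those of Etfdh in vehicle replicates 2 and 7 and BDE-47 replicate 7, and those of Acadm and Acaa2 both in vehicle replicate 6. Vehicle replicates 6 and 8 were also both below all 13 other mice in Acadm, Hadha and Acaa2. Acadl, Acadvl, Hadha and Hadhb were never under 3.26. The mean of the 9 members was lowest in vehicle replicates 6 (3.87), 8 (4.11) and 2 (4.19) and between 5.28 and 6.44 in the other 12 mice.

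**Figure D1:**
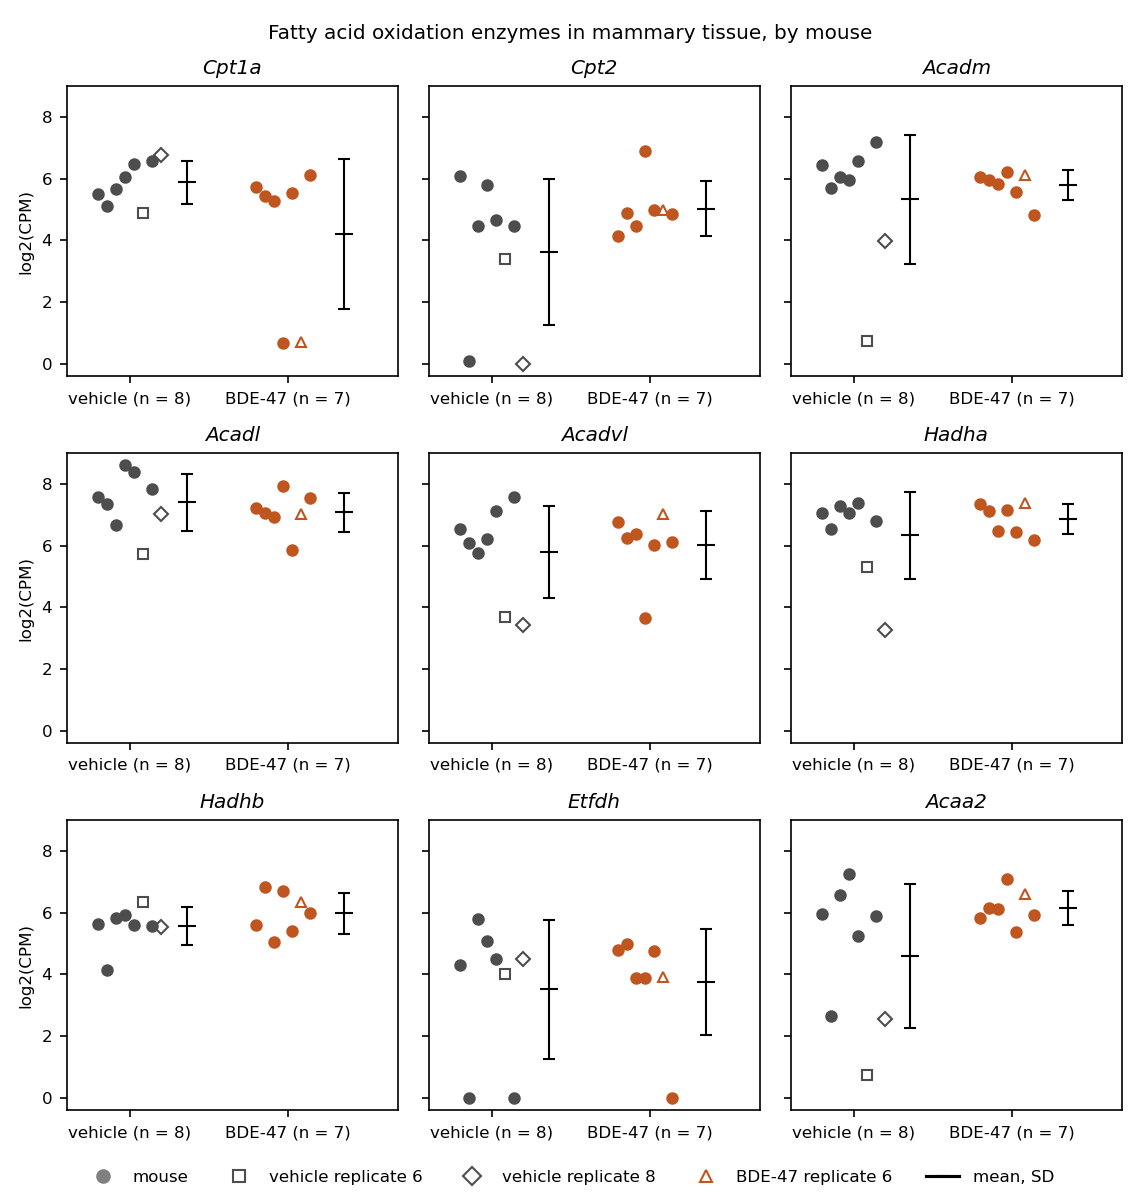
Level of each of the 9 enzyme genes in log2(CPM), 1 point per mouse (8 vehicle, grey; 7 BDE-47, orange), with the group mean and SD as a black bar beside the points. Open symbols mark vehicle replicates 6 and 8 and BDE-47 replicate 6; Cpt1a has 2 BDE-47 mice under 1, and the low points of Acadm, Hadha and Acaa2 are vehicle mice.

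**Figure D2:**
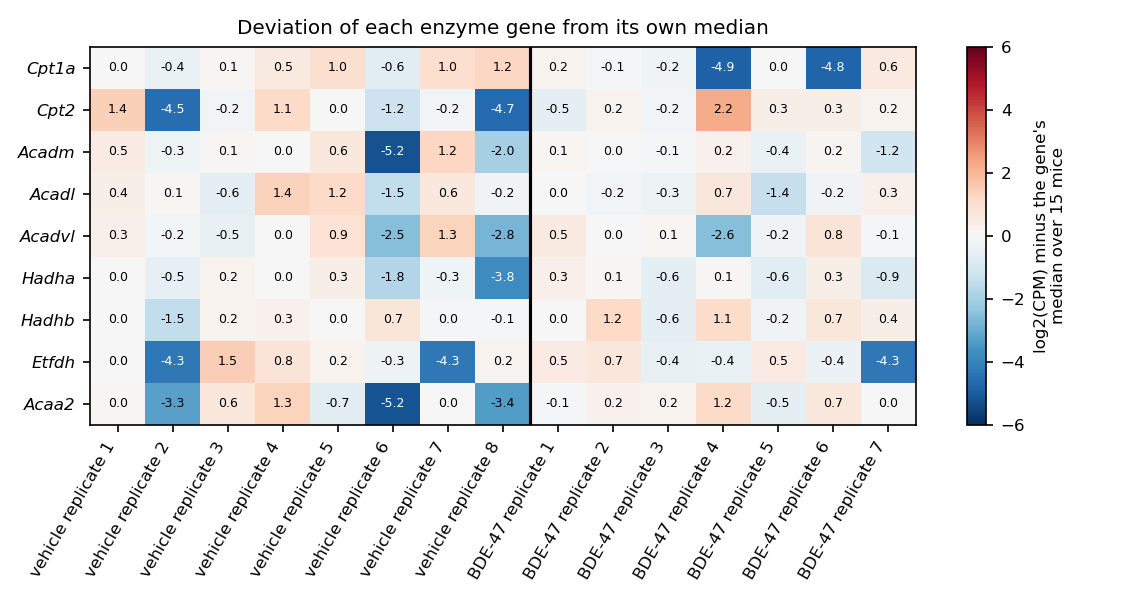
Deviation of each enzyme gene in each mouse from that gene's median over the 15 mice, in log2(CPM), with the value written in each cell (blue lower, red higher; vehicle left of the line). Vehicle replicates 6, 8 and 2 each hold several of the deep blue cells, and those of Cpt1a lie in BDE-47 replicates 4 and 6.

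Whether BDE-47 altered these enzymes was asked by comparing the 7 exposed with the 8 vehicle mice. The mean was higher with BDE-47 in 7 of the 9 members (49.1% of the 9511 tested genes were higher), with a median difference of 0.42 (-0.02 over all tested genes). None passed limma after Benjamini-Hochberg adjustment over all tested genes, and 0.0% of the tested genes did. The lowest adjusted p of the members was 0.982 and the highest 0.994. The scripts were tested on simulated data with known changes. Values were drawn as normal, with each tested gene's mean and spread and the same floor. Single very low mice, as in some members, were not imitated. In these data limma recovered 0% of 200 genes, picked at random from all tested genes, changed by 1 on the log2 scale. It recovered 12.5% at a change of 2 and 44.5% at 3. That none passed does therefore not show that the members were unchanged. At an unadjusted limma p under 0.05 there were 2, Cpt1a on the lower and Acaa2 on the higher side (4.66% of the tested genes, 1.93% higher and 2.72% lower). By the exact permutation test over all 6435 splits of the mice, two-sided, with a smallest possible p of 0.000155, 0 of 9 had p under 0.05. The share of all tested genes by this test was not computed, so this count is not read as a result about the members. A difference over 1 on the log2 scale was seen in 3 (26.3% of the tested genes), and the groups overlapped in all 9 (0.0105% of the tested genes did not overlap).

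The acyl-carnitine step showed the lowest difference of the set. Cpt1a, the carnitine palmitoyltransferase of the outer membrane, ranged from 4.90 (median 5.86) to 6.76 in vehicle mice and from 0.68 (median 5.44) to 6.12 in BDE-47 mice. The BDE-47 group was split, with 5 mice between 5.29 and 6.12, inside the vehicle range, and replicates 4 and 6 at 0.68 and 0.71, which stand for 31 of 19.38 M and 32 of 19.58 M reads. The means were 5.88 ± 0.69 (SD, n = 8) and 4.21 ± 2.42 (SD, n = 7), a difference of -1.67 ± 0.74 (SE, 95% interval -3.16 to -0.18). The unadjusted limma p was 0.0292 and the exact permutation p was 0.0659, with 6 of the 7 exposed mice below the mean of the controls. The libraries of BDE-47 replicates 4 and 6 were deeper than any vehicle library, and replicate 6 is the one with skeletal muscle markers. BDE-47 replicate 4 nevertheless had the fewest genes above the floor of all mice, 6932, against 7475 to 11490 in vehicle mice. BDE-47 replicate 6 had 9326. The part of this low detection in the Cpt1a difference was not tested. The Cpt1a difference was -1.69 without vehicle replicates 6 and 8. With BDE-47 replicate 6 left out as well, it was -1.10 (exact permutation p = 0.184). As a ratio of mean CPM it was -0.84 on the log2 scale. Among the other carriers of this step, Slc25a20, which exchanges acyl-carnitine for carnitine across the inner membrane, was at 4.80 ± 0.75 (SD, n = 8) and 3.22 ± 2.42 (SD, n = 7). Cpt1b, the form known from muscle, was listed at 0 in every mouse, including BDE-47 replicate 6 with its skeletal muscle markers. A value at 0 does not show that Cpt1b was absent there.

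Cpt2, which regenerates acyl-CoA inside the mitochondrion, had the opposite sign. It was between 0 and 6.09 (median 4.48) in vehicle mice and between 4.13 and 6.89 (median 4.88) in BDE-47 mice. Vehicle replicates 2 (0.11, 16 reads) and 8 (listed at 0) lay far below the rest, and BDE-47 replicate 4, with 2304 reads, lay above every other mouse. The difference was 1.40 ± 0.86 (SE, 95% interval -0.33 to 3.14), with all 7 exposed mice above the control mean of 3.63 ± 2.35 (SD, n = 8). The limma p was 0.109 and the exact permutation p was 0.192, and without vehicle replicates 6 and 8 the difference was 0.76.

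The 3 acyl-CoA dehydrogenases, which act on long (Acadl), very long (Acadvl) and medium (Acadm) chains, differed between the groups by less than the spread between mice. Acadl, the most abundant member, was between 5.73 and 8.60 (median 7.47) in vehicle mice and between 5.87 and 7.93 (median 7.07) in BDE-47 mice. The difference was -0.32 ± 0.42 (SE, 95% interval -1.17 to 0.53; exact permutation p = 0.459), and -0.66 without vehicle replicates 6 and 8 (exact permutation p = 0.105). Acadvl lay between 3.42 and 7.58 (median 6.16) in vehicle mice and between 3.66 and 7.01 (median 6.24) in BDE-47 mice, with vehicle replicates 6 and 8 and BDE-47 replicate 4 at 3.69, 3.42 and 3.66 and all other mice at 5.77 or more. Its difference was 0.23 ± 0.60 (SE; exact permutation p = 0.779). Acadm lay between 0.74 and 7.19 (median 6.01) in vehicle mice and between 4.81 and 6.21 (median 5.97) in BDE-47 mice. Its lowest values were 0.74 (26 reads) in vehicle replicate 6 and 3.97 (187 reads) in vehicle replicate 8, both below all 13 other mice, and the medians of the groups lay close together. The difference of means was 0.47 ± 0.67 (SE; exact permutation p = 0.692). Without these vehicle mice it was -0.52 for Acadm and -0.52 for Acadvl (exact permutation p = 0.0909 and 0.391), so the sign of both turned and all 3 dehydrogenases had a lower mean with BDE-47.

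For the trifunctional protein the differences were 0.53 in the alpha and 0.42 in the beta subunit, within the spread between mice. Hadha, the alpha subunit with the hydratase and dehydrogenase activities, was between 3.26 and 7.38 (median 6.92) in vehicle mice and between 6.17 and 7.39 (median 7.12) in BDE-47 mice. Vehicle replicates 8 (3.26, 115 reads) and 6 (5.30) were again below all 13 other mice. The difference was 0.53 ± 0.51 (SE, 95% interval -0.49 to 1.55; exact permutation p = 0.424), and -0.15 without those mice. Hadhb, the thiolase subunit read out from the same stretch of promoter, was between 4.14 and 6.34 (median 5.61) in vehicle mice and between 5.05 and 6.83 (median 5.98) in BDE-47 mice. Here vehicle replicate 6 was the highest of its group (6.34) and replicate 2 the lowest. The difference was 0.42 ± 0.50 (SE, 95% interval -0.60 to 1.43; exact permutation p = 0.248), and 0.54 without vehicle replicates 6 and 8. The subunits with the shared window were thus placed differently in vehicle replicates 6 and 8.

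At the end of the cycle, Acaa2, the thiolase that splits acetyl-CoA from shorter chains, had the highest difference of the set. It was between 0.74 and 7.24 (median 5.57) in vehicle mice and between 5.36 and 7.08 (median 6.13) in BDE-47 mice. The BDE-47 mice lay inside the upper part of the vehicle range, and the vehicle group was spread out by replicates 6 (0.74, 26 reads), 8 (2.55, 70 reads) and 2 (2.65, 93 reads). The means were 4.60 ± 2.32 (SD, n = 8) and 6.16 ± 0.55 (SD, n = 7), a difference of 1.55 ± 0.72 (SE, 95% interval 0.09 to 3.01), and every exposed mouse was above the control mean. The unadjusted limma p was 0.0378 and the exact permutation p was 0.125. Without vehicle replicates 6 and 8 the difference was 0.57 (95% interval -0.56 to 1.69). Etfdh, the electron carrier of the inner membrane, was between 0 and 5.79 (median 4.39) in vehicle mice and between 0 and 4.99 (median 3.93) in BDE-47 mice, with 6 of 8 and 6 of 7 mice above the floor. Its difference was 0.23 ± 1.00 (SE, 95% interval -1.78 to 2.25; exact permutation p = 0.908), and 0.47 without vehicle replicates 6 and 8.

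**Figure D3:**
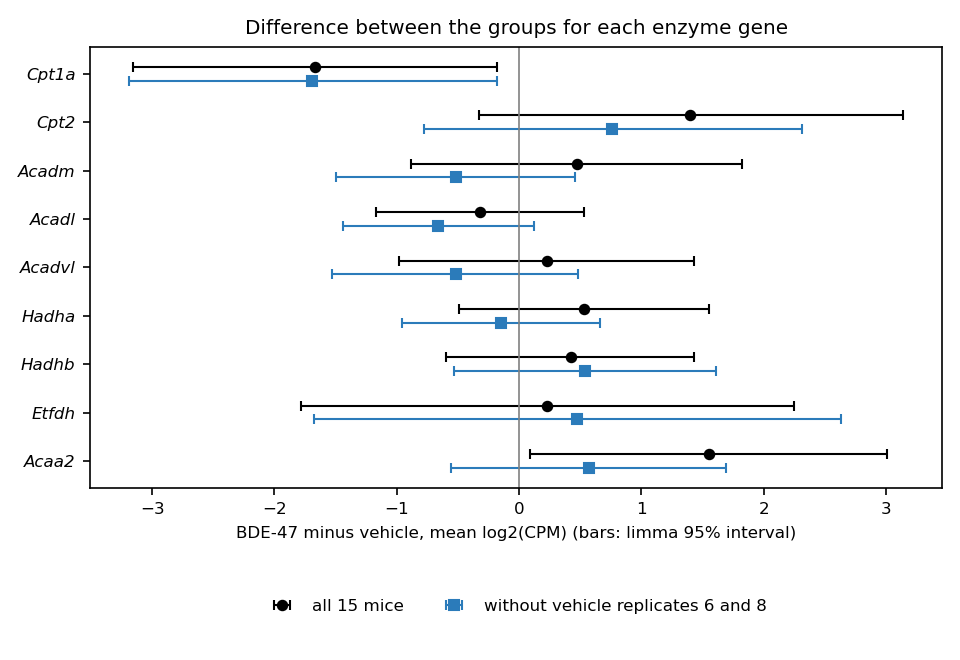
Difference between BDE-47 and vehicle in mean log2(CPM) for each enzyme gene, with limma 95% intervals, in all 15 mice (black circles) and without vehicle replicates 6 and 8 (blue squares). Cpt1a lies near -1.7 in both; Acaa2 goes from 1.55 to 0.57, and Acadm, Acadvl and Hadha go from above 0 to below it.

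Without vehicle replicates 6 and 8, 4 of the 9 members had a higher mean with BDE-47 (46.6% of the tested genes), in place of 7, and the median difference of the members was -0.15 (-0.07 over all tested genes). In the same 13 mice all 9 white adipocyte markers had a lower mean with BDE-47, against 1 of 9 in the 15 mice, and 5 of the 9 members were lower. The members and the white adipocyte markers were therefore compared mouse by mouse. Over all 15 mice, Acadm (Pearson's r = 0.86, permutation p = 0.00098, Benjamini-Hochberg 0.0353 over 36 relations of members with 4 marker lists; Spearman's rho = 0.56, permutation p = 0.0333, adjusted 0.425) and Acaa2 (r = 0.79, permutation p = 0.00298, adjusted 0.0427; rho = 0.49, permutation p = 0.0662, adjusted 0.476) passed by r and not by rho. Vehicle replicates 6 and 8 form a cluster of their own at low marker levels, and these relations rest on them, since without both mice r was 0.26 for Acadm and 0.18 for Acaa2. Over the other 13 mice, Pearson's r between a member and the mean of the 9 white adipocyte markers was -0.17 to 0.56 (median 0.18), and 0 of 9 relations passed adjustment by r or by Spearman's rho. The highest was Cpt1a (r = 0.56, permutation p = 0.0599, adjusted 0.539; rho = 0.38, permutation p = 0.202, adjusted 0.867), which was 0.16 without the 2 mice farthest from the median marker level. The part of fat content in the group differences was not tested.

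**Figure D4:**
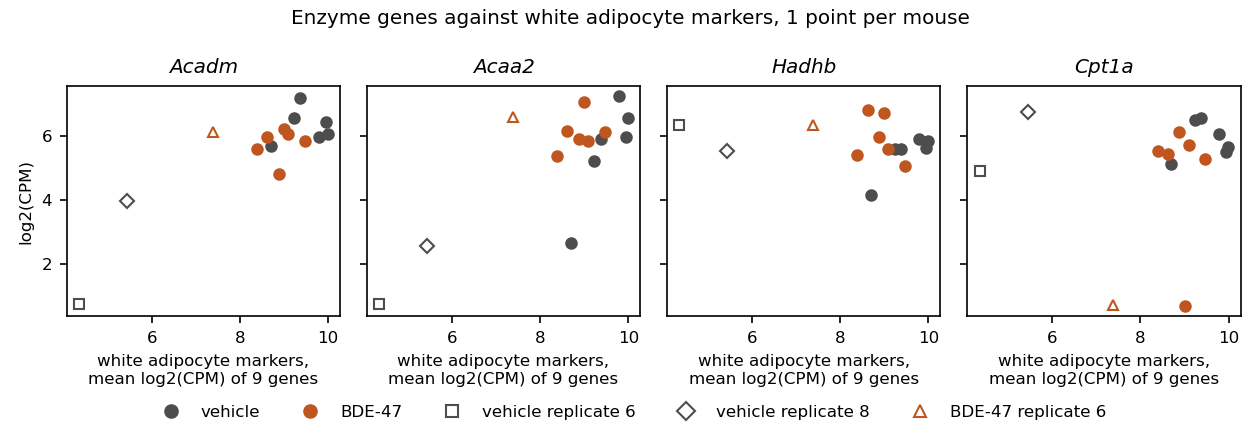
Level of 4 enzyme genes in log2(CPM) against the mean log2(CPM) of the 9 white adipocyte markers, 1 point per mouse (grey vehicle, orange BDE-47, open symbols the 3 mice that stood apart). Vehicle replicates 6 and 8 lie at 4.35 and 5.44 on the marker axis, low in Acadm and Acaa2 and inside the range of the other mice in Hadhb.

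A list of 8 genes of mitochondrial content (Cs, Tfam, Vdac1, Cox4i1, Ndufs1, Sdha, Atp5a1, Tomm20) had mean levels of 5.26 to 6.66 in vehicle mice and 5.48 to 7.06 in BDE-47 mice. Over the 15 mice 1 of 9 members, Acadvl, passed with it by r (r = 0.71, permutation p = 0.00356, adjusted 0.0427 over the same 36 relations; rho = 0.29, permutation p = 0.294, adjusted 0.704). Without vehicle replicates 6 and 8, the mice farthest from the median, r was 0.42, so the relation rests on them. No member had an adjusted value under 0.05 with the skeletal muscle or the brown and beige fat markers by either coefficient. Tomm20, an import receptor of the outer membrane, was the member of this content list with an unadjusted limma p under 0.05 (difference 2.12 ± 1.03 (SE), above the floor in 2 of 8 vehicle and 6 of 7 BDE-47 mice), and Ndufs1, a subunit of complex I, was its lowest at -0.40. In the 13 mice they were at 1.79 and -0.72, and 4 in place of 5 of the 8 genes were higher.

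Among themselves the enzymes had, over all 15 mice, r of -0.43 to 0.79 in the 36 pairs of members (median 0.27, 24 above 0). Adjusted over the 36, 0 pairs passed by r and 1 by rho, Acadm with Hadha (rho = 0.78, permutation p = 0.00091, adjusted 0.0328; r = 0.66, permutation p = 0.0583, adjusted 0.196; r = 0.58 without vehicle replicates 6 and 8). The highest r was that of Acadm with Acaa2 (r = 0.79, permutation p = 0.0026, adjusted 0.0662; rho = 0.41, permutation p = 0.132, adjusted 0.523), which was 0.15 without those mice. Over the 13 mice, r in the same pairs ran from -0.43 to 0.88 (median 0.16, 25 above 0), and 0 pairs passed adjustment over the 36 by r or rho. The highest of these was Cpt2 with Acaa2 (r = 0.88, permutation p = 0.00325, adjusted 0.0628; rho = 0.59, permutation p = 0.0384, adjusted 0.308), and without vehicle replicate 2, lowest in both, and BDE-47 replicate 4, highest in Cpt2, it was 0.34. Hadha and Hadhb, which share a promoter window, had r = 0.45 over the 13 mice (permutation p = 0.126, adjusted 0.504; rho = 0.41, permutation p = 0.17, adjusted 0.68). The 5 other genes whose profile over the 15 mice was most like that of the 9 members were Dhdh, Arxes2, Slc36a2, Aldh6a1 and Pisd, with a mean r of 0.49 to 0.51 (median of 9502 genes 0.02), as a description without a test. In the 13 mice their mean r was 0.33 to 0.41, so part of the likeness lies in vehicle replicates 6 and 8.

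The wider pathway was taken as 64 genes in 6 lists. Of 50 that were tested, 24 had a higher and 26 a lower mean with BDE-47 (median difference -0.02), 0 passed adjustment and 1 had a limma p under 0.05 before it. That gene was Plin5, which ties lipid droplets to mitochondria, at 1.80 ± 0.83 (SE, exact permutation p = 0.0291, limma adjusted p = 0.982), above the floor in 2 of 8 vehicle and 7 of 7 BDE-47 mice. Without vehicle replicates 6 and 8, 14 of the 50 were higher and the median was -0.41.

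Of the genes of fatty acid uptake and activation, 2 of the 7 tested were higher and 5 lower, from Acsl4 at -0.74 to Acsl1, the main acyl-CoA synthetase of fat, at 0.68. Without vehicle replicates 6 and 8, 0 of the 7 were higher and Acsl1 was at -0.60. The rest of the carnitine shuttle had 2 tested genes, both lower, Slc25a20 at -1.59 ± 0.87 (SE, exact permutation p = 0.118) and Crat at -0.22, and without those mice at -1.87 and -0.70. The other mitochondrial oxidation enzymes were the list most like the members in sign, with 9 of 12 tested genes higher, from Eci2 at -0.40 to Eci1 at 1.26, both enoyl-CoA isomerases. In the 13 mice 5 of these 12 were higher, with Eci2 at -0.74 and Eci1 at 0.18. Of the peroxisomal enzymes 4 of 12 were higher and 8 lower, from Acox3, an acyl-CoA oxidase, at -1.60 to Abcd3, a transporter of the peroxisomal membrane, at 1.03, and in the 13 mice 2 of 12 were higher, with Acox3 at -1.19 and Abcd3 at 0.28. Of the regulators 6 of 9 were higher, from Ppard at -0.41 to Mlycd, which breaks down the malonyl-CoA that inhibits Cpt1a, at 1.65 ± 1.01 (SE, exact permutation p = 0.141), and in the 13 mice 5 of 9, with Ppard at -0.28 and Mlycd at 1.42. Of the receptor targets outside the members 3 of 8 were higher, from Angptl4 at -0.59 to Plin5 (2 of 8 in the 13 mice, with Angptl4 at -1.56 and Plin5 at 1.60), and Cyp4a10 and Cyp4a14 were listed at 0 in every mouse. In the 15 mice the median differences of these lists lay between -0.90 and 0.43, against 0.42 for the members, and no list was tested as a set.

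Of the marker lists, the 14 skeletal muscle markers all had a higher mean with BDE-47 (median 1.38). These means include BDE-47 replicate 6, in which the markers summed to 130208 CPM. By the median mouse of each group, the mean level of the list was 1.86 in vehicle and 1.91 in BDE-47 mice. The 6 tested mammary epithelium markers were all higher (median 1.22), and 3 of 6 were higher without vehicle replicates 6 and 8. Of the brown and beige fat markers 3 of 4 were higher (0 of 4 without those mice), of the macrophage markers 1 of 5 (2 of 5), and of the endothelial markers 3 of 5 (2 of 5), with Pecam1, an adhesion molecule of endothelium and the 1 gene of these lists with an unadjusted limma p under 0.05, at -1.32 ± 0.60 (SE). Of the B cell markers 0 were tested, as none was above the floor in 7 mice. Their part in the differences of the 9 enzymes was not tested, other than by leaving out the mice that stood apart.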

How the data were processed

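Libraries were made with QuantSeq 3′ FWD from mammary tissue of 15 mice, 1 library each. The submitters' processing notes name STAR 2.5.3a and GRCm38, and the study's methods name normalization to CPM. The deposited numbers are log2 values of CPM in which a gene below 1 CPM appears as 0. The log2 step and this floor were read from the numbers themselves, and they were used untransformed. Depth was recovered from the steps of the low values; reads under the floor are lost, so no count model was run. Of 52636 entries per mouse, 110 repeats of a gene name were dropped, keeping the entry with the highest mean. Genes above 0 in at least 7 mice were tested with limma 3.58.1 in R 4.3.3 (prior variance with a trend), without the xenograft covariate, which the labels do not give. Single genes were compared with the exact permutation test, and correlations with 100000 permutations (scipy 1.17.1). Scripts were tested on simulated data. Promoters and coordinates are from RefSeq tables of GRCm38.p6. The members, pathway lists and marker lists were chosen with earlier results of these data known. Named genes are the members, those of each pathway list with an unadjusted p under 0.05 or with the highest or lowest difference, defining markers, and the 5 genes most correlated with the members. Relations over 13 mice were added after the data were seen. Alternatives were log2(CPM + 1), log2(CPM + 0.1), median-of-ratios size factors, ratios of mean CPM, other filters, no trend, a replicate block, and leaving out mice.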

Additional observations from a re-analysis of the deposited data

Results flagged for a closer look

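In the 18 groups of values (9 enzymes in 2 conditions), 4 held a mouse far from the nearest other mouse of its group by Dixon's criterion. Chance meets it in about 1 of 20 groups if values are normally distributed, which values with a floor are not. For Cpt2, BDE-47 replicate 4 was highest at 6.89, with the next mouse at 4.99. The same mouse was the lowest for Acadvl at 3.66, with the next at 6.03. For Hadhb, vehicle replicate 2 was lowest at 4.14, with the next at 5.54. For Etfdh, BDE-47 replicate 7 was listed at 0, with the next at 3.87. Of the 4, none is a mouse with B cell or skeletal muscle markers. The criterion does not settle whether those mice lie apart, because low mice that lie near each other can hide one another. Examples are Cpt1a in BDE-47 replicates 4 and 6 (0.68 and 0.71) and Acaa2 in vehicle replicates 8 and 2 (2.55 and 2.65).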

How the results depend on the processing

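The number of members with a higher mean in BDE-47 mice was 7 and became 4 without vehicle replicates 6 and 8, 4 without these and BDE-47 replicate 6 (a setting chosen after seeing the data), and 4 with the log2 ratio of mean CPM. With those 3 mice left out, limma called 2 of 9511 genes in place of 0 (lowest adjusted p = 0.0312, 445 at an unadjusted p under 0.05), Wfdc18, higher, and Chchd2, lower, which were named after their values were seen and are no members. Acadm turned to -0.18 without vehicle replicate 6, -0.52 without vehicle replicates 6 and 8, -0.58 without all 3 and -0.18 as a ratio of mean CPM. Acadvl turned to -0.08 and -0.11 without vehicle replicate 6 or 8, -0.52 without both, -0.69 without all 3 and -0.05 as a ratio. Hadha turned to -0.15 and -0.24 without the 2 and the 3 mice. Etfdh turned to -0.27 without vehicle replicate 2 or 7 and -0.17 as a ratio. The cause was not tested. Leaving out single mice moved Cpt1a between -1.99 (exact permutation p = 0.0276, without BDE-47 replicate 7) and -1.08 (without BDE-47 replicate 4), and its exact permutation p was under 0.05 in 4 of 15 such settings. Acaa2 moved between 1.00 (without vehicle replicate 6) and 1.93 (exact permutation p = 0.0466, without vehicle replicate 4), Cpt2 between 0.89 and 1.76, Acadl between -0.56 and -0.12, Acadm between -0.18 and 0.74, Acadvl between -0.11 and 0.62, Hadha between 0.10 and 0.68, Etfdh between -0.27 and 0.86 and Hadhb between 0.21 and 0.57. The number of members with an unadjusted limma p under 0.05 was 2, and it was 0 without vehicle replicate 8, BDE-47 replicate 4 or BDE-47 replicate 6, with no filter and with no trend. Cpt1a, Cpt2, Acadl, Hadhb and Acaa2 kept their sign in all 22 alternatives.

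With the replicate number as a replicate block, vehicle replicate 8 was left out, as no BDE-47 mouse has that number. In this setting limma called 0 genes (382 at an unadjusted p under 0.05). Acadvl was -0.11, as it was without vehicle replicate 8 and with no block. Mice of the same number had correlations of -0.0177 to 0.0528 over 7 pairs. Of the 7 vehicle mice in these pairs, 3 correlated best with the BDE-47 mouse of their own number. The labels do not say whether the numbers pair the mice, and these values cannot decide it.

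Depth of 10.06 to 19.58 M reads puts the floor at 10.06 to 19.58 reads, and values listed at 0 do not show that a gene was absent.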
